A study of Mus musculus with 12 samples.

Results

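The genes described are 10 mouse small nucleolar RNA (snoRNA) host genes with short reading frames, Gas5, Snhg1, Snhg5, Snhg6, Snhg8, Snhg10, Snhg12, Snhg15, Snhg17 and Snhg18. They were taken by symbol from a list and not by their values, though earlier results of these data were known. All 10 were found among the 55487 genes of the count tables. The cells were primary mouse embryonic fibroblasts (MEF) from E13.5 embryos, all with floxed Htt alleles (HTTfl/fl). HTT-deleted cultures received a lentivirus carrying Cre recombinase with GFP, control cultures one carrying H2B-eGFP, and both were harvested 7 days after transduction. Ribosome-associated RNA came from a purified ribosome pellet, and total RNA from 1 part in 15 of the same cell suspension. Each of the 4 groups, namely ribosome-associated HTT-deleted, ribosome-associated control, total HTT-deleted and total control, had 3 libraries. The labels count a replicate as independent when it came from another primary culture or another passage, so p-values measure the spread between such samples. Bulk RNA of a transduced culture does not tell how many of its cells lost Htt.

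A snoRNA host gene is transcribed and spliced like any other gene, and its snoRNAs are trimmed out of the introns. C/D box snoRNAs guide methylation and H/ACA box snoRNAs guide pseudouridylation, mostly of ribosomal RNA, while scaRNAs guide the same reactions on spliceosomal RNA in Cajal bodies. The spliced exons of noncoding hosts are exported, many are known to meet ribosomes, and Gas5 is the textbook case of a spliced host RNA destroyed by nonsense-mediated decay, which depends on translation. Many hosts share with ribosomal protein genes a start site in a run of pyrimidines, the 5′ terminal oligopyrimidine tract through which growth signalling sets translation.

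The start sites are shown because such a tract can be looked for in their letters. RefSeq (GRCm38.p6) held 11 start sites for 9 of the 10 genes. The lines give the sense strand 5′ to 3′, each with 70 bases and the start at base 31, and capitals mark the longest run of C or T that touches the window from 10 bases before to 25 bases after the start.
Snhg8: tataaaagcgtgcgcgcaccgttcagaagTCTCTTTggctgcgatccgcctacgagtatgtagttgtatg
Snhg12: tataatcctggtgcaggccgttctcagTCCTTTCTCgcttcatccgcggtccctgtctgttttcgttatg
Gas5: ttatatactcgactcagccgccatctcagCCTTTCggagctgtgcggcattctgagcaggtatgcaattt
Snhg1: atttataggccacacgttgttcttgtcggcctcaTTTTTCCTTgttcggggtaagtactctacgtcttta
Snhg17: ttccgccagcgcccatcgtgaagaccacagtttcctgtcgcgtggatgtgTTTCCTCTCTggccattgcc
Snhg15: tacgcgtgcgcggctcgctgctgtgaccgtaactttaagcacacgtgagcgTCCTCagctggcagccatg
These lie at chr3:123508297-123508366 (minus strand), chr4:132308648-132308717 (plus), chr1:161035136-161035205 (plus), chr19:8723457-8723526 (plus), chr2:158361470-158361539 (minus) and chr11:6528721-6528790 (minus). In Snhg8 a run of 7 and in Snhg12 a run of 9 pyrimidines spanned the start itself, and so did the run of 6 at the downstream start of Gas5. A run of 10 in Snhg18, which is not printed, spanned it as well, from base -4 to base 6. At the upstream start of Gas5, which is not printed, the longest run was 3, a length reached or passed at 93.0% of all starts. The run of 9 in Snhg1 began 5 bases into the transcript. The run of 10 in Snhg17 began at base 21 of the transcript, and Snhg15 had no run longer than 5. At the other start of Snhg17, which is not printed, the longest run was 6, from base 14 to base 19. A run of that length or more was reached at 39.1% of all starts. Both starts of Gas5 and both of Snhg17 are counted separately in the shares that follow. A run of 6 or more was found at 81.8% of the 11 host starts, 68.5% of the 73 starts of ribosomal protein genes and 39.1% of all 32851 starts in the table. These shares count any run that touches the window, also those that do not span the start, as in Snhg1 and Snhg17. A match is a description of letters and not of a used start.

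The hosts differ in what they carry. In GENCODE M21, Gas5 (chr1:161034422-161038539, plus strand) held 10 of the 33 nested small RNA genes, and Snhg1 (chr19:8723475-8726443, plus) held 8, both with C/D box members such as Snord47 and Snord22. Snhg5 (chr9:88521050-88522929, minus) carries Snord50a and Snord50b, Snhg6 (chr1:9941959-9944118, minus) Snord87 and Snhg18 (chr15:32240565-32244662, minus) Snord123, all of the C/D class. Snhg8 (chr3:123507552-123508404, minus) carries Snora24 and Snhg15 (chr11:6525591-6528760, minus) Snora9, both H/ACA. Snhg12 (chr4:132308623-132311024, plus) mixes H/ACA and C/D members, and Snhg10 (chr12:105030617-105032279, minus) holds the scaRNA Scarna13. Snhg17 (chr2:158353700-158361580, minus) holds 3 small RNA genes that the annotation names only provisionally. The longest reading frame opening with ATG ran from 2 to 111 codons over the annotated transcripts of the 10 genes. It was 35 codons in all 3 transcripts of Snhg8 and 2 to 103 codons in those of Snhg17.

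The counts describe the host RNA and hardly the snoRNAs. Of the 33 nested genes, 30 lie wholly within annotated exons of host transcripts that keep introns, and all 30 had 0 counts in every library. Reads that lie in more than 1 annotated gene can be set aside as ambiguous, so these 0 counts do not tell whether such snoRNAs were present. Ambiguous reads were 2.41 to 2.68% in ribosome-associated and 2.09 to 2.63% in total libraries. Snord87, Scarna13 and Snord123, which lie outside host exons, had 0 to 18 counts per library. Annotated exons covered the whole gene span in Snhg1, Snhg8 and Snhg12, 89.5% in Snhg17 and 31.8% in Snhg10. Reads from unspliced host RNA therefore count towards some hosts more than others, and their share was not tested. Snhg17 shares 132 exon bases with a provisionally named noncoding gene on the same strand and Snhg6 shares 127 with Mcmdc2 on the other, and no source used here says whether counting used strand.

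The libraries held 16789356 to 30571501 gene counts. Htt was at 12.8, 5.04 and 3.98 CPM in ribosome-associated RNA of HTT-deleted cells (replicates 1, 2 and 3), against 22.6, 20.1 and 31.97 CPM in that of control cells. In total RNA it was at 15.5, 10.6 and 10.7 CPM in HTT-deleted cells, against 58.9, 45.8 and 64.6 CPM in control cells, so the groups did not overlap in either fraction. CPM is the TMM-scaled count relative to library size. All 10 fibroblast markers were detected, with a summed level of 27300 to 51400 CPM in the total libraries. The total library of HTT-deleted replicate 1 stood apart. Its gene-wise deviations from the mean correlated with transcript length at a Spearman rho of -0.542, against 0.181 to 0.359 in the 5 other total libraries, so it leaned to short transcripts. On ribosomes, control replicate 1 was at -0.421 and the 5 other libraries were at 0.012 to 0.151. Among the hosts, the longest annotated transcript was shorter than the median of all tested genes, 3245 bases, in 9 of 10.

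Per kilobase of annotated exon, Gas5 and Snhg8 stood highest in every group and Snhg10 and Snhg17 lowest. In ribosome-associated RNA Gas5 had 36.1 ± 17.2 CPM per kb in HTT-deleted cells and 39.96 ± 15.8 in control cells, and Snhg8 had 35.4 ± 5.39 in HTT-deleted cells and 40.4 ± 5.86 in control cells (SD, n = 3 each). In total RNA Gas5 had 33.2 ± 12.9 CPM per kb in HTT-deleted cells and 26.9 ± 10.0 in control cells, and Snhg8 had 41.7 ± 27.4 in HTT-deleted cells and 25.5 ± 1.33 in control cells. The order of this pair turned between groups and lay within the spread. Snhg18 followed at 15.7 to 21.2 CPM per kb over the 4 group means. Snhg6, Snhg5, Snhg15, Snhg12 and Snhg1 lay at 8.28 to 14.7 CPM per kb, in an order that changed between groups. Neighbours in it differed by more than the larger of their SDs only for Snhg6 over Snhg5 and Snhg12 over Snhg1 in total RNA of control cells and for Snhg1 over Snhg15 in ribosome-associated RNA of HTT-deleted cells. Snhg10 had group means of 1.69 to 4.05 CPM per kb and Snhg17 of 1.45 to 4.73. Per kilobase of the longest annotated transcript, Gas5 and Snhg8 were again highest and Snhg10 and Snhg17 lowest in every group. The place of Snhg18 depended on the length used. In total RNA of control cells it had 15.7 CPM per kb of that transcript, below Snhg15 at 22.2 and Snhg6 at 18.4. Not corrected for length, Snhg17 at 33.4 CPM was behind only Gas5 at 101 CPM in total RNA of control cells. Gas5 alone gave 30.6 to 52.5% of the counts of the 10 genes in a library.

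**Figure D1:**
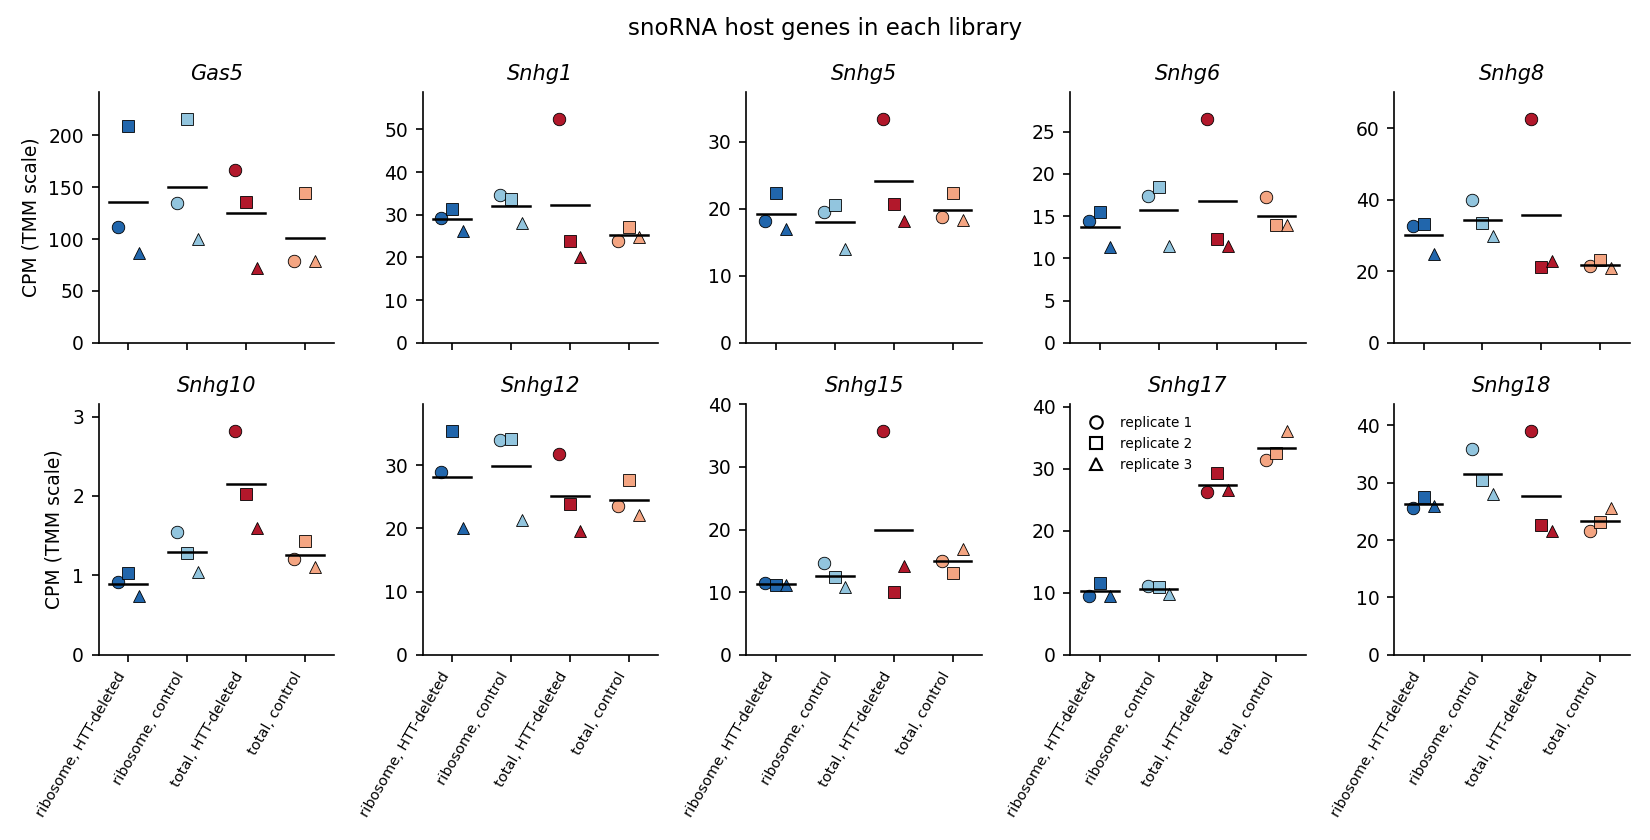
Level of each snoRNA host gene in each of the 12 libraries, in CPM on the TMM scale (linear axes from 0), with 1 panel per gene. Points are libraries with a shape for each replicate number, bars are group means, ribosome-associated groups stand left of total ones and HTT-deleted left of control. The first HTT-deleted replicate is the highest total library for every gene except Snhg17, and the Snhg17 libraries separate by fraction.

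Snhg17 RNA was depleted from ribosomes in both kinds of cell. In HTT-deleted cells it had 9.50, 11.6 and 9.54 CPM in ribosome-associated RNA (replicates 1, 2 and 3), against 26.3, 29.4 and 26.5 CPM in total RNA. In control cells it had 11.04, 10.9 and 9.84 CPM in ribosome-associated RNA, against 31.4, 32.5 and 36.1 CPM in total RNA. Every ribosome-associated library lay below every total library, and the mean ratio was 0.373 in HTT-deleted cells and 0.317 in control cells. On the log2 scale Snhg17 fell by 1.43 (SE 0.17) in HTT-deleted cells, with a Benjamini-Hochberg adjusted p of 0.0259 in edgeR's quasi-likelihood test. In control cells it fell by 1.66 (SE 0.10), with an adjusted p of 0.000668 by the same test. Only 2.53% of the 14627 genes tested in HTT-deleted cells and 2.93% of the 14990 tested in control cells had a lower fitted value. The value in HTT-deleted cells ranged from -1.53 to -1.37 when 1 library was left out, and it missed the threshold in 5 of those 6 fits, with adjusted p of 0.097 to 0.229 by edgeR. Without the total HTT-deleted replicate 1 it was -1.46 (SE 0.14, edgeR adjusted p 0.00618).

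No other host was called lower in either kind of cell without the replicate block, and in control cells Snhg8 and Snhg18 were higher on ribosomes. Snhg8 had 39.8, 33.5 and 29.9 CPM in ribosome-associated RNA of control cells, against 21.4, 23.1 and 20.9 CPM in total RNA. Snhg18 had 35.9, 30.4 and 28.1 CPM in ribosome-associated RNA of control cells, against 21.5, 23.1 and 25.5 CPM in total RNA. Neither pair of groups overlapped. The share of all genes whose groups did not overlap was not counted in any comparison. By edgeR's quasi-likelihood test Snhg8 rose by 0.65 on the log2 scale (SE 0.13, adjusted p 0.0124) and Snhg18 by 0.42 (SE 0.12, adjusted p 0.0444). Without ribosome-associated control replicate 1 Snhg8 was at 0.55 (SE 0.10, edgeR adjusted p 0.0229) and Snhg18 at 0.33 (SE 0.11, edgeR adjusted p 0.102). The call of Snhg8 was lost without total control replicate 1 (0.65, edgeR adjusted p 0.0545). That of Snhg18 was lost in 5 of 6 fits leaving out 1 library, with edgeR adjusted p of 0.0746 to 0.149. In all, 2 of 10 hosts were called higher in control cells, where 10.0% of all genes were, and 1 was called lower, where 15.0% were, so the number of calls was near that of genes at large.

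Gas5, whose spliced RNA is the known decay target, varied widely between cultures, with SDs of 0.50 to 0.66 in log2 CPM within the 4 groups. It had 135, 216 and 99.7 CPM in ribosome-associated RNA of control cells, against 79.3, 145 and 79.1 CPM in total RNA. In HTT-deleted cells it had 112, 209 and 86.1 CPM in ribosome-associated RNA, against 167, 136 and 71.6 CPM in total RNA. Replicate 2 was the highest of its group in 3 of the 4 groups, the exception being total HTT-deleted RNA, and all groups overlapped. In control cells the fitted value was 0.56 (SE 0.36), which did not pass. The ribosome-associated value exceeded the total one in each control culture, by 0.77, 0.58 and 0.33 on the log2 scale. With the replicate number as a block Gas5 rose by 0.55 (SE 0.08, edgeR adjusted p 9.9e-05).

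Snhg1 also lay higher on ribosomes in control cells, with 34.7, 33.6 and 28.1 CPM in ribosome-associated RNA against 23.9, 27.2 and 24.8 CPM in total RNA. These groups did not overlap, though the share of all genes that separate in this way was not counted. Its log2 value was 0.34 without the block, which did not pass, and with the block it rose by 0.33 (SE 0.09, edgeR adjusted p 0.0073). The blocked fit called 50.2% of all genes in control cells (24.3% higher and 25.9% lower) and 5 of the 10 hosts, namely Snhg8, Snhg18, Gas5 and Snhg1 as higher and Snhg17 as lower.

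The remaining hosts in control cells did not separate by fraction. Snhg12 had 34.1, 34.1 and 21.3 CPM in ribosome-associated RNA, against 23.6, 27.6 and 22.2 CPM in total RNA. Snhg6 had 17.4, 18.4 and 11.4 CPM in ribosome-associated RNA, against 17.2, 14.0 and 13.9 CPM in total RNA. Their log2 values were 0.28 for Snhg12 and 0.05 for Snhg6, and both pairs of groups overlapped. Snhg5 had 19.6, 20.5 and 14.1 CPM in ribosome-associated RNA, against 18.7, 22.4 and 18.3 CPM in total RNA. Snhg15 had 14.6, 12.5 and 10.8 CPM in ribosome-associated RNA, against 14.9, 13.1 and 16.9 CPM in total RNA. Their log2 values were -0.14 for Snhg5 and -0.25 for Snhg15, and Snhg10 was at 0.03. With the block and cultures 2 and 3 alone, 49.2% of all genes were called (24.1% higher and 25.0% lower). In that fit Snhg15 (-0.39, edgeR adjusted p 0.00308) and Snhg5 (-0.26, edgeR adjusted p 0.0241) were also called lower. It rests on 2 cultures, whose differences were -0.07 and -0.64 for Snhg15 and -0.12 and -0.38 for Snhg5. With the block and all 3 cultures neither passed (edgeR adjusted p 0.0877 for Snhg15 and 0.213 for Snhg5). The median of the 10 hosts was 0.16 in control cells, against 0.02 over all genes tested.

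In HTT-deleted cells the values hung on 1 total library. With all 6 libraries 2 of 10 hosts were above 0, the median of the 10 hosts was -0.27, against 0.00 over all genes, and the only host called, Snhg17, was 1 of 131 genes called, 0.896% of those tested. Without total HTT-deleted replicate 1 the values of 6 of 10 hosts were above 0, the median was 0.23, 19.9% of all genes were called, and Snhg17 was still the only host called. In that fit Snhg8 was at 0.45 (SE 0.16), Snhg1 at 0.39 (SE 0.13) and Snhg18 at 0.25 (SE 0.09), with edgeR adjusted p of 0.104, 0.0991 and 0.126. In cultures 2 and 3 alone the ribosome-associated value of Snhg8 exceeded the total one by 0.64 and 0.12, and that of Gas5 by 0.62 and 0.27. In culture 1 the same differences were -0.94 for Snhg8 and -0.58 for Gas5, opposite to the others. With the block and cultures 2 and 3, 55.6% of all genes were called (27.7% higher and 27.9% lower). In that fit Gas5, Snhg1, Snhg8, Snhg12 and Snhg18 were called higher, at 0.46, 0.38, 0.38, 0.32 and 0.27. Snhg10 and Snhg17 were called lower. The fit rests on 2 cultures, and its SE of 0.09 for Snhg8 was small beside their values of 0.64 and 0.12. Its calls therefore say little about the spread between cultures.

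**Figure D2:**
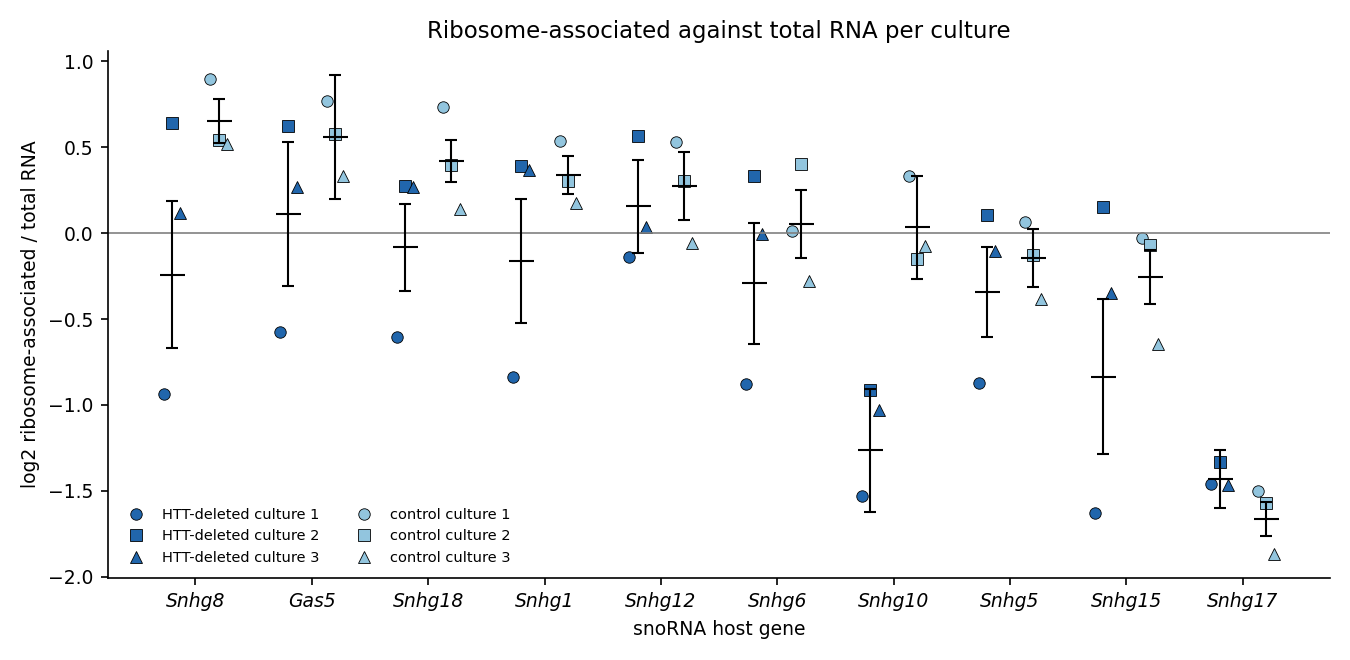
Ribosome-associated over total RNA on the log2 scale for each host, ordered by its value in control cells, with HTT-deleted cultures left of control cultures. Points are cultures, bars are the fitted value ± SE over 3 libraries a group. Snhg17 is below -1.3 in all 6 cultures, and HTT-deleted culture 1 is below the other HTT-deleted cultures for every host except Snhg17.

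By its median, 0.16, the list of 10 hosts lay between other lists of genes in control cells. All lists were chosen with earlier results of these data known, so this placing is a description. Of the long noncoding RNAs known to stay in the nucleus, 8 of 9 tested were called lower on ribosomes and none higher, with a median of -1.74, and Kcnq1ot1, an imprinted antisense transcript, fell by 4.97 (SE 0.31, edgeR adjusted p 0.000668). Snhg17 was thus close to the median of that list, and where in the cell its RNA lay was not tested. A list of other noncoding snoRNA hosts also held Mir17hg, a host of a microRNA cluster and not of snoRNAs. Of its 8 genes tested, 4 were called lower and none higher, with a median of -1.17. With the block 6 were called lower and 1 higher. These counts and the median include Mir17hg. The lowest were Snhg11, which fell by 3.00 on the log2 scale, and Mir17hg, which fell by 2.54. Snhg11 was scarce, with a mean of 0.0948 CPM in ribosome-associated and 0.842 CPM in total RNA of control cells. Snhg14 at -1.86 and Snhg20 at -1.38, both called lower, lay on either side of Snhg17. Zfas1 and Epb41l4aos, at 0.45 and 0.43, did not pass. Of 35 protein-coding genes that carry snoRNAs, 22 were called higher and 2 lower, with a median of 0.65. Most of those called higher were ribosomal protein genes, so the median mainly describes these. Among the other genes of the list only Eef1b2, Eif4a1, Hspa8 and Rack1 were called higher. Rpl21, which codes for a protein of the large ribosomal subunit, rose by 0.82 on the log2 scale (SE 0.10, edgeR adjusted p 0.00336), while Taf1d and Sf3b3 fell by 0.49 and 0.43.

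Genes of snoRNA assembly and of nonsense-mediated decay gave further values for the same comparison. Of 20 snoRNP and assembly genes 5 were called higher and none lower, with a median of 0.25, and with the block 13 were called higher and 1 lower. Nop10 and Nhp2, both core proteins of H/ACA particles, rose by 0.83 and 0.81 on the log2 scale. Of 16 decay factors 2 were called higher and 7 lower, with a median of -0.30. Smg1, the kinase of the pathway, fell by 1.07 (SE 0.13, edgeR adjusted p 0.00299), and Magoh, an exon junction protein, rose by 0.61 (SE 0.09, edgeR adjusted p 0.00549).

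**Figure D3:**
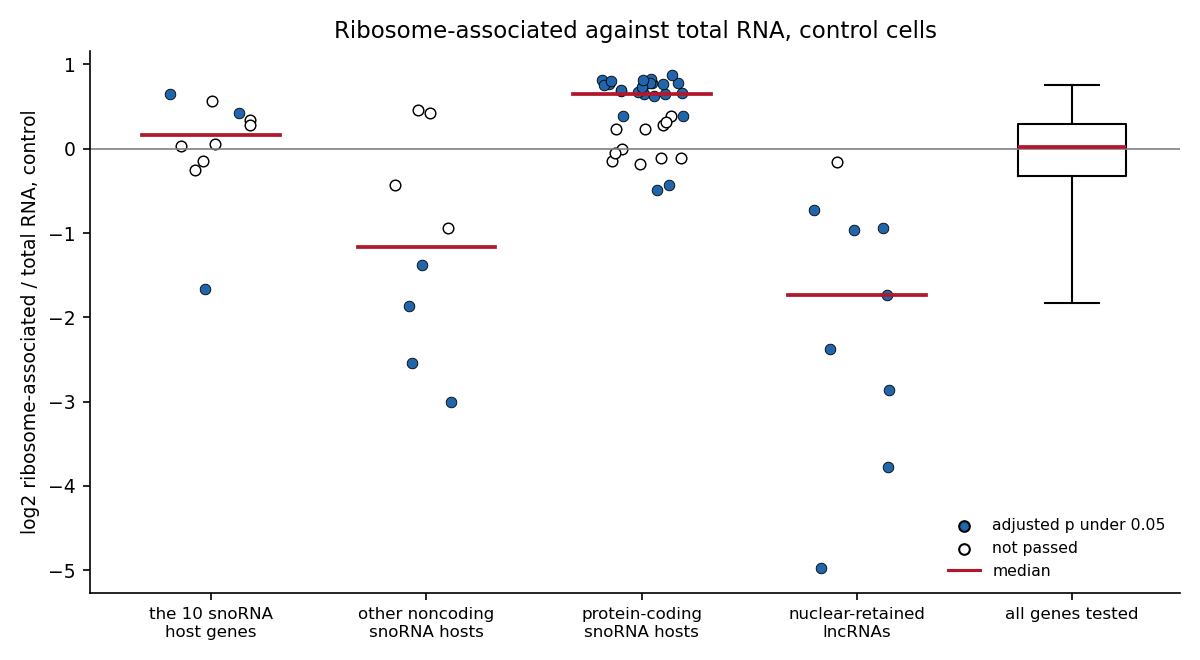
Ribosome-associated over total RNA in control cells, log2, for each tested gene of 4 lists and for all 14990 genes tested. Points are genes, filled where edgeR's adjusted p is under 0.05, red bars are medians, and the box of all genes spans its quartiles with whiskers that leave out 2.5% of genes at each end. 9 of the 10 hosts lie between -0.25 and 0.65. Snhg17, at -1.66, lies among the nuclear-retained RNAs and also among the other noncoding snoRNA hosts.

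4 of the hosts start close to an opposite-strand protein-coding gene, so host and neighbour could be set side by side. Zbtb37, a zinc finger gene whose start lies 427 bases from that of Gas5, had 12.1, 16.0 and 15.2 CPM in ribosome-associated RNA of control cells, against 25.2, 34.4 and 27.3 CPM in total RNA. It fell by 1.01 on the log2 scale (edgeR adjusted p 0.00628), while Gas5 was at 0.56. Glrx5, which codes for a mitochondrial iron-sulfur protein, rose by 0.43 (edgeR adjusted p 0.015), while its neighbour Snhg10 was at 0.03. Slc3a2, the heavy chain of amino acid transporters beside Snhg1, was at 0.05, and Sema5a, an axon guidance gene beside Snhg18, was at -0.17, and neither passed. The differences between hosts and neighbours were not tested.

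HTT deletion called none of the hosts in total RNA. Among 14759 genes edgeR's quasi-likelihood test called 0 (0.0%). Htt itself, at -2.16 (SE 0.24), did not pass either (edgeR adjusted p 0.812). A host that was not called may therefore still have changed. An unadjusted p under 0.05 was reached by 44 genes, DESeq2 called 3 (0.0203%) and limma voom called 0. None of the 10 hosts had an unadjusted p under 0.05 by edgeR or limma voom, and 1 had by DESeq2. The fitted values were above 0 for 9 of 10 hosts, with a median of 0.34 against 0.01 over all genes. That sign followed total HTT-deleted replicate 1. Snhg8 had 62.6, 21.2 and 23.0 CPM in HTT-deleted cells, against 21.4, 23.1 and 20.9 CPM in control cells. Snhg1 had 52.5, 23.9 and 20.2 CPM in HTT-deleted cells, against 23.9, 27.2 and 24.8 CPM in control cells. Snhg15 had 35.8, 9.99 and 14.2 CPM in HTT-deleted cells, against 14.9, 13.1 and 16.9 CPM in control cells. For each of these genes only replicate 1 was high, and the groups overlapped. Without it 3 of 10 hosts were above 0 and the median was -0.11, and after the length trend was removed from all 6 libraries the median was 0.05. Snhg8, at 0.76 (SE 0.45) with all libraries, was at 0.03 (SE 0.10) without replicate 1.

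Snhg17 and Snhg10 were the hosts whose total RNA groups did not overlap. How many of all genes separate in this way was not counted, so this only describes the values. Snhg17 had 26.3, 29.4 and 26.5 CPM in HTT-deleted cells, against 31.4, 32.5 and 36.1 CPM in control cells. Its log2 value was -0.25 with all libraries (SE 0.13) and -0.24 without HTT-deleted replicate 1 (SE 0.10), with unadjusted p of 0.102 and 0.0525 and edgeR adjusted p of 0.978 and 1.0. Snhg10 had 2.82, 2.02 and 1.60 CPM in HTT-deleted cells, from 51, 37 and 30 counts, against 1.21, 1.43 and 1.11 CPM in control cells, from 37, 29 and 30 counts. Its log2 value was 0.81 (SE 0.35) with all libraries and 0.54 (SE 0.30) without replicate 1, and neither passed.

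In ribosome-associated RNA HTT deletion again called 0 of 14588 genes by edgeR (0.0%). Htt itself was at -1.78 (SE 0.47) and did not pass here either. An unadjusted p under 0.05 was reached by 110 genes, DESeq2 called 1 (0.00685%), limma voom 0 and the blocked fit 247 (1.69%). None of the 10 hosts was called in any of these, and 0 had an unadjusted p under 0.05 in the unblocked edgeR fit. With the block 2 hosts had, Snhg18 (edgeR p 0.0244) and Gas5 (edgeR p 0.0443), as had 1471 of the 14588 genes. Without the block the fitted values lay between -0.51 and 0.09, with a median of -0.15 against 0.00 over all genes. Snhg18 had 25.7, 27.5 and 25.9 CPM in HTT-deleted cells, against 35.9, 30.4 and 28.1 CPM in control cells. The groups did not overlap, and its log2 value was -0.25 (SE 0.12, unadjusted p 0.0657, edgeR adjusted p 1.0). Snhg10 had 0.918, 1.03 and 0.737 CPM in HTT-deleted cells, from 20 to 25 counts a library, against 1.55, 1.28 and 1.05 CPM in control cells, from 25 to 32. Its groups did not overlap either, and its value was -0.51 (SE 0.32). The share of all genes that separate in this way was not counted here either, so this only describes the values.

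**Figure D4:**
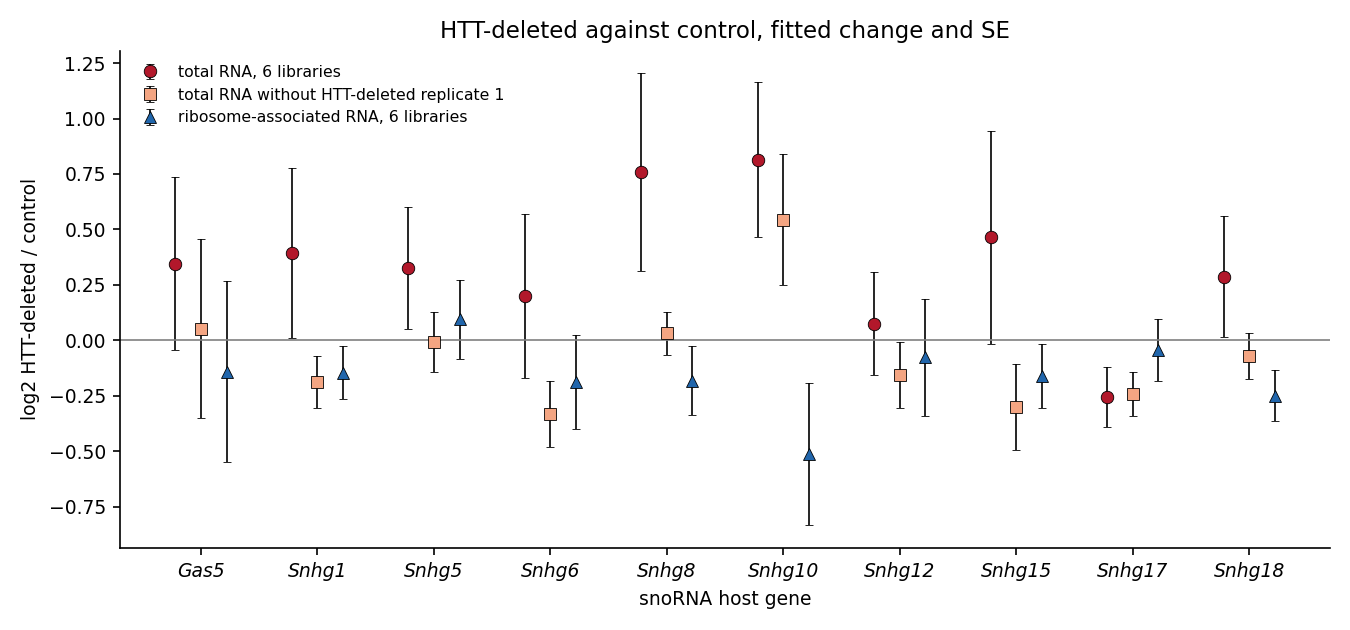
HTT-deleted over control on the log2 scale for each host, as the fitted value ± SE, for total RNA with all 6 libraries, total RNA without HTT-deleted replicate 1 and ribosome-associated RNA. No value passes an adjusted p of 0.05. Leaving out the library lowers 9 of the 10 total RNA values, Snhg8 to 0.03, and Snhg10 lies above 0 in total and below 0 in ribosome-associated RNA.

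Whether the share on ribosomes differed between HTT-deleted and control cells was tested as an interaction over all 12 libraries. edgeR called 0 of 15574 genes (0.0%) and DESeq2 called 0, and an unadjusted p under 0.05 was reached by 85 genes. The median of the hosts was -0.47 with all libraries and 0.08 without total HTT-deleted replicate 1, so its sign rested on that library. Snhg10 was the only host with an unadjusted p under 0.05, at -1.30 (SE 0.43, p 0.0114, edgeR adjusted p 1.0), and at -1.04 (SE 0.41) without that library. Snhg17 was at 0.24 (SE 0.17), so its depletion from ribosomes was not shown to differ between the 2 kinds of cell. These fits did not pair the fractions of a culture. With the cultures as a block edgeR also called 0 genes. Snhg10 was then at -1.27 (SE 0.36, edgeR adjusted p 0.859) and Snhg17 at 0.23 (SE 0.16, edgeR adjusted p 0.859).

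In the authors' deposited table, whose name says that unwanted variation was modelled (RUVSeq), 844 of 16974 genes (4.97%) passed a false discovery rate of 0.05 in total RNA. It held 2 of the 10 hosts, Snhg8 at a log2 fold change of 0.56 (false discovery rate 0.00996) and Snhg10 at 0.78 (0.034). In ribosome-associated RNA the authors' deposited table called 683 of 16235 genes (4.21%) and none of the hosts, with Snhg8 at -0.19 and Snhg10 at -0.51.

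Macrophage markers leaned one way with HTT deletion. The values of all 18 were above 0 in both fractions, with medians of 0.73 in ribosome-associated and 0.89 in total RNA. Without total HTT-deleted replicate 1 the total RNA median was 0.19, with 16 of 18 above 0. With its control partner also left out and with the block, the median was 0.81, with all 18 above 0. None passed without the block, and none was at 0 CPM. With it edgeR called 10 higher in ribosome-associated RNA and 0 in total RNA. With the block and cultures 2 and 3 alone it called 1 of 18 in ribosome-associated RNA, where 0.0944% of all genes were called, and 4 of 18 in total RNA, where 0.629% were. Their summed level was 2840 to 8610 CPM in ribosome-associated RNA of HTT-deleted cells and 1220 to 5000 CPM in that of control cells. In total RNA it was 1840 to 7600 CPM in HTT-deleted cells and 807 to 3310 CPM in control cells. Replicate 1 was the highest in every group, and the part of these markers in the host values was not tested. In bulk RNA fewer cells of a type and less RNA per cell cannot be told apart.

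The 5 genes that followed the mean profile of the hosts most closely over the 12 libraries were taken from 12393 candidates. The root mean square difference in centred log2 CPM was 0.07 for Iah1, 0.09 for Ddrgk1, 0.10 for Aldh4a1, 0.10 for Pck2 and 0.10 for Nexn, against a median of 0.42 over all candidates. The hosts themselves differed from their mean by 0.11 for Snhg5 to 0.75 for Snhg17. That mean profile was at 0.78 in total HTT-deleted replicate 1 and between -0.38 and 0.15 in the 11 other libraries.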

How the data were processed

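RNA sequencing was analysed in 12 libraries, 3 for each of 4 groups. The submitters' processing notes name FastQC, STAR 2.7.2b, HTSeq 0.11.1 and edgeR, and the build GRCm38 (mm10). What the authors deposited for each library is the raw count of reads for every Ensembl gene, and 5 summary entries that name no gene were left out of library sizes and tests. Reads in no gene were 2.64 to 3.30% in ribosome-associated and 6.94 to 7.73% in total libraries. No source used here gives the annotation release or says whether counting used strand. Of 55487 genes, 55394 were in GENCODE M21. The authors' deposited comparison table holds a log2 fold change per gene, a p-value with its false discovery rate, a test score and a mean log2 CPM.

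Counts were filtered with filterByExpr, scaled by TMM and tested with edgeR 4.0.16 (R 4.3.3) by the robust quasi-likelihood test, with Benjamini-Hochberg adjustment over all genes tested and calls at an adjusted p under 0.05. Only the groups compared entered a fit, except for the interaction. Log2 CPM used a prior count of 2. Scripts were tested on simulated data. Replicates differed by more than sampling noise (chi-square per degree of freedom 32.1 to 162), so none was merged. Same-numbered libraries deviated together, with correlations of 0.227 to 0.576 between HTT-deleted and control cells in total RNA, 0.525 to 0.703 in ribosome-associated RNA, and 0.347 to 0.579 (HTT-deleted) and 0.501 to 0.737 (control) between fractions of 1 suspension, so the blocked value is given where it changes a call. Alternatives were other scalings and filters, DESeq2 1.42.0, limma voom 3.58.1, the block, removal of a length trend and leaving out each library. All 10 hosts were named, with opposite-strand partners starting within 1000 bases, the 5 genes most alike over 12 libraries, and the extremes of each list, of which 1 gene is not reported here. The hosts and lists were chosen with earlier results of these data known.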

Additional observations from a re-analysis of the deposited data

Results flagged for a closer look

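Snhg10 moved one way in each fraction. In ribosome-associated RNA the HTT-deleted library lay below the control library of the same number in all 3 pairs, by -0.70, -0.29 and -0.46 on the log2 scale. In total RNA it lay above it in all 3 pairs, by 1.16, 0.47 and 0.49. The interaction was -1.2968 on the log2 scale, with an unadjusted p of 0.0114 and an adjusted p of 1.0 by edgeR's quasi-likelihood test, so the difference did not pass over all genes. The gene had 20 to 51 counts in a library, and at a minimum of 5 CPM in 3 libraries it was not tested. Without total HTT-deleted replicate 1 the interaction was -1.04.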

How the results depend on the processing

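Over the alternatives, 701 values of single hosts kept their direction and side of the threshold, 12 lost a call, 11 gained one and 61 changed sign. Of those 61, 58 were not called in the alternative, 35 came from leaving out 1 library (15 of them from leaving out total HTT-deleted replicate 1) and 19 from the replicate block without pair 1. That block turned HTT in total RNA to -0.1089 for Gas5, -0.3091 for Snhg15, -0.1873 for Snhg12, -0.1321 for Snhg18, -0.0496 for Snhg5, -0.2276 for Snhg6 and -0.2352 for Snhg1, and HTT in ribosome-associated RNA to 0.0276 for Snhg17. It turned the interaction to 0.2631 for Snhg15, 0.1914 for Snhg12, 0.0062 for Snhg18, 0.2513 for Snhg5, 0.1093 for Snhg6 and 0.1356 for Snhg1. Between fractions it gave 0.1648 for Snhg6 in HTT-deleted cells and -0.1243 for Snhg10 in control cells, and the 3 values that changed sign and were called, Snhg1 at 0.3777, Snhg8 at 0.3771 and Snhg18 at 0.2677 in HTT-deleted cells. Removing the length trend turned HTT in total RNA to -0.0145 for Snhg15, -0.1286 for Snhg12 and -0.1951 for Snhg6, and the interaction to 0.0832 for Snhg12, 0.0754 for Snhg5 and 0.0376 for Snhg6. With limma voom Snhg6 was at -0.022 between fractions of control cells. Leaving out 1 library changed the sign of 24 comparisons of single hosts in at least 1 fit. For HTT in total RNA it put Snhg15 at -0.299 to 0.7877, Snhg12 at -0.1579 to 0.2407, Snhg18 at -0.0697 to 0.4562, Snhg5 at -0.0088 to 0.5087, Snhg6 at -0.3331 to 0.4264 and Snhg1 at -0.187 to 0.6522. For HTT in ribosome-associated RNA it put Gas5 at -0.5904 to 0.2122, Snhg17 at -0.1417 to 0.0045, Snhg12 at -0.2733 to 0.1184 and Snhg5 at -0.058 to 0.1968. For the interaction it put Snhg15 at -0.8967 to 0.1582, Snhg12 at -0.3217 to 0.0992, Snhg5 at -0.3853 to 0.1218, Snhg6 at -0.5809 to 0.1652 and Snhg1 at -0.7675 to 0.0595. For the fractions of HTT-deleted cells it put Gas5 at -0.3383 to 0.3829, Snhg12 at -0.0414 to 0.3661, Snhg18 at -0.2417 to 0.2484, Snhg6 at -0.5132 to 0.2083, Snhg8 at -0.5047 to 0.4468 and Snhg1 at -0.4167 to 0.386. For the fractions of control cells it put Snhg5 at -0.2409 to 0.0123, Snhg6 at -0.0712 to 0.2436 and Snhg10 at -0.0973 to 0.1734. For HTT in total RNA, genes called were 1 with no filter, 3 with DESeq2 and 94 with the block without pair 1, where the host median was -0.1597. For HTT in ribosome-associated RNA they were 1 with DESeq2, 247 with the block and 14 with the block without pair 1. The interaction median was 0.1224 with the block without pair 1. Between fractions in HTT-deleted cells, genes called were 208 with no filter, 86 at 5 CPM, 866 with DESeq2 and 8333 with the block without pair 1, where 7 hosts were called with a median of 0.2162. Between fractions in control cells, they were 7524 with the block and 7445 with the block without pair 1, with 5 and 7 hosts called. The block without pair 1 rests on cultures 2 and 3 alone, so its calls say little about the spread between cultures. Leaving out 1 library gave host medians of -0.1138 to 0.5713 for HTT in total RNA, -0.2722 to -0.0625 for HTT in ribosome-associated RNA, -0.7137 to 0.0794 for the interaction, -0.5016 to 0.2284 between fractions in HTT-deleted cells (0 to 3008 genes and 0 to 1 hosts called) and 0.0888 to 0.3348 in control cells (1507 to 3251 genes and 1 to 5 hosts called). Snhg17 was called in control cells under every alternative run, at -1.74 to -1.61. The causes were not tested. Snhg10 had 20 to 51 counts a library.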
